A study of Mus musculus with 11 samples.

Results

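The activin, myostatin and follistatin axis was followed here through 10 genes, taken by symbol from 2 deposited count tables that each list 24421 gene symbols. They are the ligand genes Inhba, Inhbb, Gdf11, Mstn and Gdf10, the genes of the secreted inhibitors Fst and Fstl3, and the receptor genes Acvr2a, Acvr2b and Acvr1b. All 10 symbols are present in both tables. In the sorted cells 9 of the 10 passed the filter on low counts, and Mstn did not. In whole muscle all 10 passed.

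Activins are dimers of the inhibin beta chains encoded by Inhba and Inhbb. Together with myostatin and GDF11 they bind the type II receptors ACVR2A and ACVR2B, which recruit a type I receptor such as ALK4, the product of Acvr1b, and lead to phosphorylation of SMAD2 and SMAD3. Follistatin, from Fst, and its relative FSTL3 bind these ligands outside the cell and keep them from the receptors. In skeletal muscle, myostatin made by the fibres and activins from other sources limit fibre size, and follistatin lifts that limit. GDF10, also named BMP3B, is a member of the wider family made by mesenchymal progenitors of muscle.

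The study asked what beta-catenin does in the mesenchymal progenitors of mouse skeletal muscle, which are also called fibro/adipogenic progenitors. RNA was sequenced from 11 mice, 1 library per mouse: sorted progenitors of 3 WT and 3 WT/flox mice, and lysates of the tibialis anterior muscle of 2 WT and 3 WT/flox mice. Per the labels, progenitors were sorted from dissociated hindlimb muscle as CD45-, CD31-, Sca1+, tdTomato+ and alpha7- cells. All muscles were at rest, with no injury named in the labels.

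Per the series' design text, the mice carried Hic1CreERT2, a tamoxifen-inducible Cre under control of the Hic1 locus, and a tdTomato reporter, and received tamoxifen. The labels name the genotypes only as WT and WTlFlox, and in the design text the floxed gene is beta-catenin, around exon 3. WT is read here as 2 unfloxed copies of Ctnnb1, and WT/flox as 1 copy with a floxed exon 3, whose removal leaves a stabilized protein. Hic1 is active in mesenchymal cells of many tissues, so recombination need not be limited to muscle, and the tdTomato gate selects cells in which Cre was active in both genotypes. The 3 WT progenitor libraries (72B8, 74A2 and 73C3) and the WT/flox libraries 74A1 and 72B7 were taken on day 14 after tamoxifen. The third WT/flox sort, 74A3, comes from day 56, and no WT progenitors of that day are among the samples. All muscle libraries are labelled day 56: 73A5 and 73A7 are WT, and 71B3, 71B4 and 71B5 are WT/flox. Animal numbers beginning with 73A are all WT and those beginning with 71B all WT/flox, so that whatever the prefix stands for cannot be told apart from genotype in muscle.

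Total counts ran from 13119843 to 16805238 in the progenitor libraries and from 16892158 to 19449227 in the muscle libraries. Ctnnb1 was counted at 481.7 ± 38.3 CPM (counts scaled to a common library size with TMM factors; SD, n = 3) in WT and 401.9 ± 23.1 (n = 3) in WT/flox progenitors, and at 297.3 ± 37.6 (n = 2) and 296.5 ± 11.7 (n = 3) in muscle. These counts cover the whole gene and do not check the removal of exon 3. Hic1, the driver locus, was at 100.4 CPM in WT and 84.02 in WT/flox sorts (adjusted p = 0.711). The sorts carried the progenitor markers Pdgfra, Ly6a and 8 others at 3.02% to 3.97% of counts in WT and 4.45% to 5.37% in WT/flox. The 8 myofibre markers made up at most 0.0128% of the sorts, the 6 immune markers at most 0.00119% and the 6 muscle stem cell markers at most 0.000396%. Of the muscle stem cell markers, Myf5, Cdh15 and Calcr were at 0 in all 6 sorts. Itga7 was the most abundant of them, at 2.465 CPM in WT sorts. In the lysates the 8 myofibre markers made up 12.5% to 17.3% of counts. By the authors' sample tables, each progenitor group held 1 female and 2 males, and the lysates came from males.

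The sequence just upstream of the gene is shown for 3 ligand genes, 2 of which changed in progenitors, Inhba and Gdf10; Inhbb, the partner of Inhba, is set beside them. Each window holds the 250 bases before the annotated start, 5′ to 3′ on the gene's strand, from RefSeq on GRCm38.p6, and 9 of the 10 genes had such an entry (not Fst). Capitals mark a match to the core motif bound by the TCF/LEF partners of beta-catenin. The windows lie at chr13:16011601-16011850 on the plus strand for Inhba, chr1:119422249-119422498 on the minus strand for Inhbb, and chr14:33923337-33923586 on the plus strand for Gdf10.
Inhba: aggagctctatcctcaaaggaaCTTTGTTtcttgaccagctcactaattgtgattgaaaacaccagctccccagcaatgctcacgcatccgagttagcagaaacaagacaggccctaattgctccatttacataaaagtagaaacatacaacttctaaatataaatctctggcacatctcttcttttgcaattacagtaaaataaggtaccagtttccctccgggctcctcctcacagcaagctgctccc
Inhbb: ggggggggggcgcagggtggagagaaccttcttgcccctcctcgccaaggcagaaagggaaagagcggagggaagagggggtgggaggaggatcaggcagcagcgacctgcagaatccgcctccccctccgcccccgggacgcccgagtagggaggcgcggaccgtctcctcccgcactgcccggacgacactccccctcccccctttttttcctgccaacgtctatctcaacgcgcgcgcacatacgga
Gdf10: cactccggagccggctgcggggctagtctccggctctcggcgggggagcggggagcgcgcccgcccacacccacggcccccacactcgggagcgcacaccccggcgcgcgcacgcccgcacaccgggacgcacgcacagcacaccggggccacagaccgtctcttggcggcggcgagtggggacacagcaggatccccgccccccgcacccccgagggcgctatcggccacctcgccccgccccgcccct

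Exact letters were searched on both strands. The TCF/LEF core was searched as CTTTGAA, also as CTTTGAT, also as CTTTGTA and also as CTTTGTT, and the short box bound by SMAD proteins as CAGAC. The Inhba window holds 1 TCF/LEF match, CTTTGTT, at 228 to 222 bases before the start, and no CAGAC. The Gdf10 window holds 1 CAGAC match, read on the plus strand at 98 to 94 bases before the start, and the Inhbb window holds neither motif. Among the other genes, Acvr2b had 1 match to each motif at places that do not overlap, Mstn and Fstl3 had 2 CAGAC matches each, Acvr2a had 1, and Gdf11 and Acvr1b had none. Of 32851 windows of the same length in the RefSeq table, 14.8% hold a TCF/LEF match and 42.2% hold CAGAC, so that a match is common, and it is a match of letters only. The windows also differ in base composition, with 43.2% G and C for Inhba, 68.0% for Inhbb and 78.8% for Gdf10.

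In progenitors, activin A's gene Inhba rose in WT/flox mice while the genes of its inhibitor follistatin and of GDF10 fell. Those 3 of the 9 tested genes passed the test, where 3.66% of all 12392 genes tested did (2.34% higher and 1.32% lower). In whole muscle, Inhba alone passed among the 10 genes, again higher, where 0.727% of all 12654 genes tested did (0.514% higher and 0.213% lower). The receptor genes passed in neither material. Each test is a two-sided quasi-likelihood F test in edgeR with Benjamini-Hochberg adjustment over all genes and a threshold of 0.05, and a positive log2 fold change means a higher level in WT/flox mice.

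**Figure D1:**
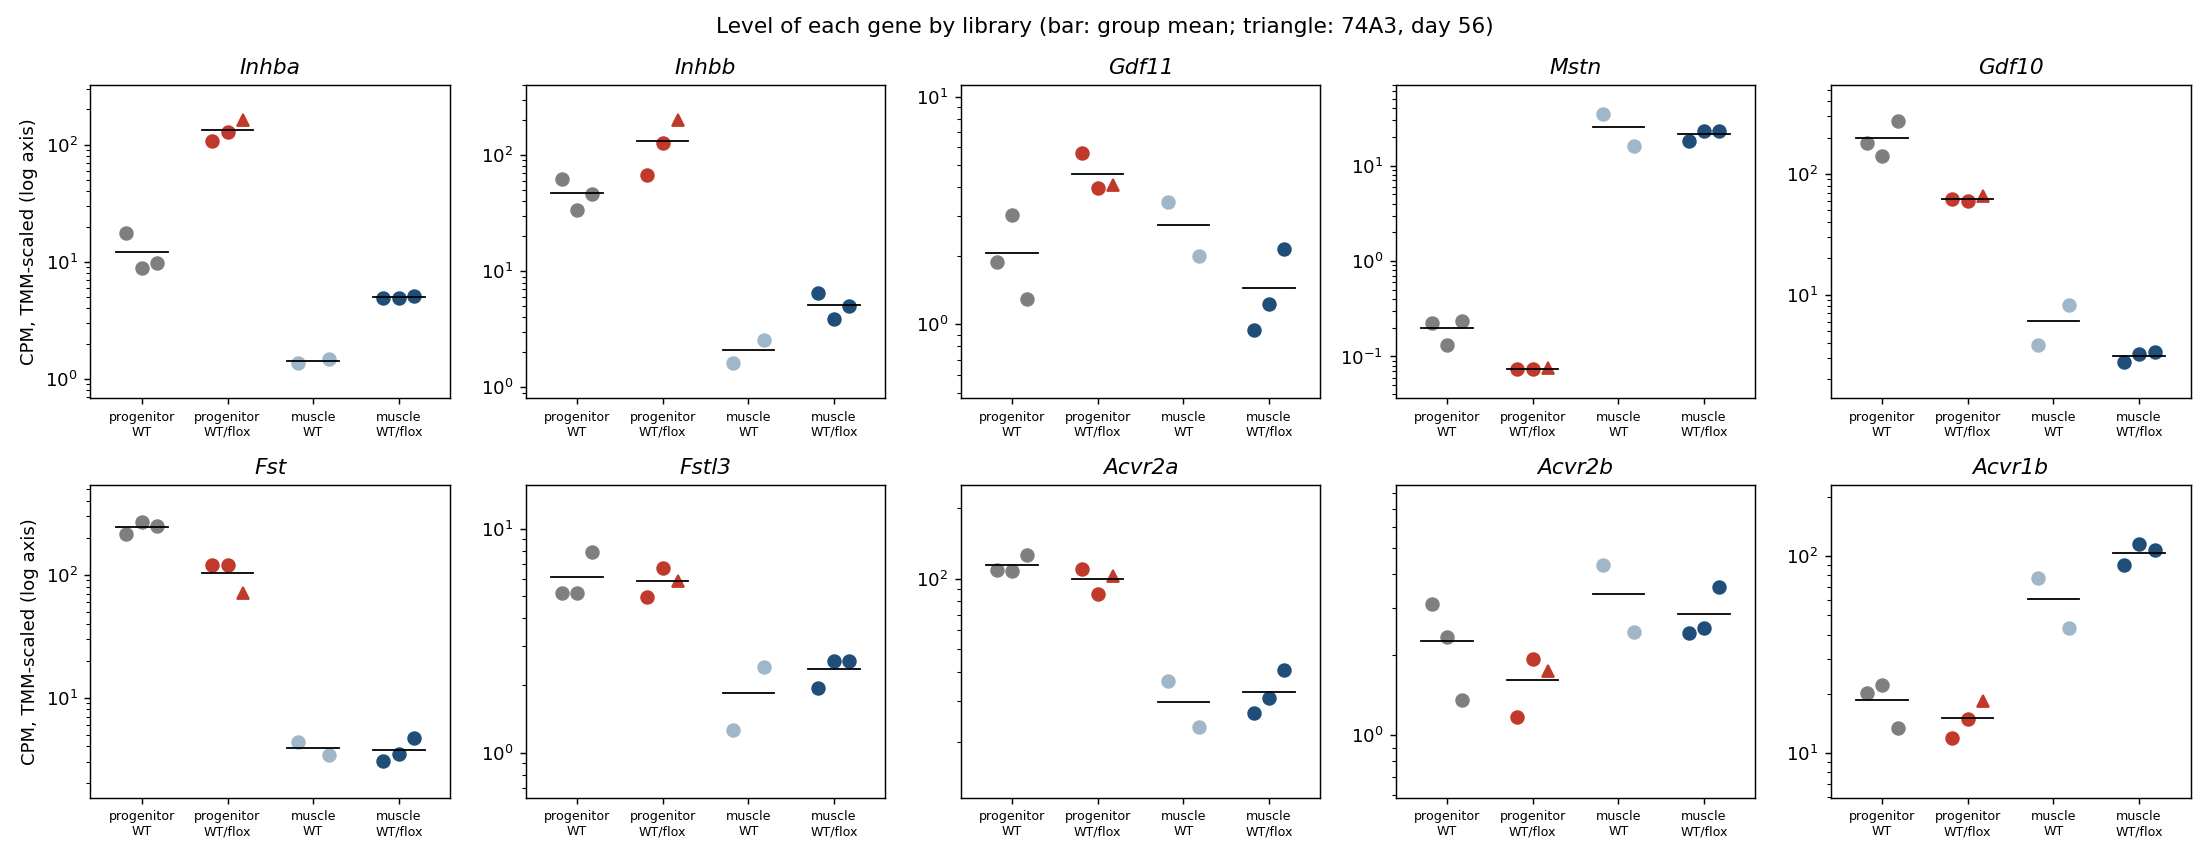
Level of each of the 10 genes in each of the 11 libraries, in TMM-scaled CPM on log axes that differ between panels. Bars are group means, and the triangle is the progenitor library of day 56, 74A3. Inhba in WT/flox progenitors lies between 108 and 161 CPM, above all 3 WT libraries, and Fst in the same libraries lies below all 3.

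Inhba lies on chromosome 13 from 16011851 to 16031621 of GRCm38, on the plus strand. It was counted at 17.5, 8.93 and 9.82 CPM in the WT progenitor libraries 72B8, 74A2 and 73C3, and at 108, 127 and 161 CPM in the WT/flox libraries 74A1, 72B7 and 74A3. Every WT/flox library was above every WT library, and the day 56 library was the highest. The log2 fold change was 3.45 (SE 0.29, adjusted p = 1.33e-04), from 12.1 ± 4.74 CPM to 132 ± 26.7 CPM (SD, n = 3 each). Without the day 56 library it was 3.28 (adjusted p = 8.65e-04).

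In whole muscle Inhba was far scarcer, with 46 counts over the WT libraries and 293 over the WT/flox libraries. The levels were 1.38 and 1.47 CPM in 73A5 and 73A7, and 4.95, 4.91 and 5.12 CPM in 71B3, 71B4 and 71B5. The genotypes did not overlap, and libraries of one genotype lay close together. This gave a log2 fold change of 1.81 (SE 0.22, adjusted p = 0.0156). The call was lost without 71B4 (1.82, adjusted p = 0.0896) and without 71B5 (1.79, adjusted p = 0.11), where the size of the difference moved little. Genes called over the whole muscle table went from 92 to 25 and to 0 in those same fits, the last with 1023 genes at an unadjusted p under 0.05.

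Inhbb, which encodes the beta chain of activin B, lies on chromosome 1 from 119415465 to 119422248 on the minus strand. Its level was 61.7, 33.4 and 46.0 CPM in the WT progenitor libraries and 67.0, 127 and 201 CPM in the WT/flox libraries. The lowest WT/flox library, 74A1, was only just above the highest WT library, 72B8, and the day 56 library was the highest of all. Its log2 fold change of 1.49 (SE 0.38) did not pass the test (adjusted p = 0.0782). It passed without 74A1 (1.80, adjusted p = 0.0113), with DESeq2 (1.49, adjusted p = 5.65e-04), with sex as a term (1.41, adjusted p = 0.00628) and in the fit over all 4 groups (1.44, adjusted p = 0.0259). Without the day 56 library it was 1.04 (adjusted p = 0.213).

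In muscle Inhbb had levels of 1.62 and 2.56 CPM in WT and of 6.54, 3.89 and 5.07 CPM in WT/flox. The genotypes did not overlap here either, but the log2 fold change of 1.31 (SE 0.32) did not pass (adjusted p = 0.16). With DESeq2 the same difference passed (adjusted p = 0.0379).

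Gdf11, the gene of a ligand closely related to myostatin, lies on chromosome 10 from 128882295 to 128891718 on the minus strand and was scarce throughout. It was at 1.88, 3.04 and 1.29 CPM in WT and 5.65, 3.98 and 4.09 CPM in WT/flox progenitors, without overlap. A log2 fold change of 1.14 (SE 0.36) did not pass (adjusted p = 0.148). In muscle the order was the opposite, with 3.47 and 1.99 CPM in WT and 0.949, 1.23 and 2.15 CPM in WT/flox. There the genotypes overlapped, and the log2 fold change was −0.91 (SE 0.41, adjusted p = 0.531).

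Mstn, the gene of myostatin, lies on chromosome 1 from 53061640 to 53068079 on the plus strand. In the sorts it was barely counted, with 3, 2 and 4 counts in WT and 1 count in each WT/flox library, too few for a test. The ratio of WT/flox to WT counts per total was 0.361, with an exact 95% interval of 0.0628 to 1.44 that covers counting error only. In muscle Mstn was at 35.1 and 16.0 CPM in WT and at 18.2, 22.9 and 23.3 CPM in WT/flox. All 3 WT/flox libraries lay between the 2 WT libraries, and the log2 fold change was −0.25 (SE 0.30, adjusted p = 0.876). The spread of the WT pair sets that value: without 73A5 it was 0.42.

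Gdf10 lies on chromosome 14 from 33923587 to 33937983 on the plus strand. WT progenitors held 182, 140 and 273 CPM, and WT/flox progenitors 62.4, 59.3 and 65.2 CPM. The WT/flox libraries lay close together, all below the lowest WT library, and the day 56 library did not stand apart. Gdf10 fell, with a log2 fold change of −1.67 (SE 0.24, adjusted p = 0.0035), and −1.71 (adjusted p = 0.0226) without the day 56 library. In muscle, 73A5 and 73A7 held 3.83 and 8.27 CPM and the WT/flox libraries 2.79, 3.20 and 3.35 CPM. These also did not overlap, but the WT libraries lay far apart and the log2 fold change of −0.95 (SE 0.32) did not pass (adjusted p = 0.356). It was −1.40 (adjusted p = 0.0174) without 73A5 and −0.30 (adjusted p = 0.799) without 73A7.

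Fst, the follistatin gene, lies on chromosome 13 from 114452290 to 114458951 on the minus strand. It was at 215, 270 and 248 CPM in WT progenitors and at 120, 119 and 71.5 CPM in WT/flox progenitors. All WT/flox libraries were below all WT libraries, with the day 56 library lowest. Fst thus fell, with a log2 fold change of −1.24 (SE 0.22, adjusted p = 0.0131), from 244.6 ± 27.7 to 103.5 ± 27.7 CPM (SD, n = 3 each). Without the day 56 library it was −1.03 (adjusted p = 0.0416), and without 72B7 it was −1.35 and the call was lost (adjusted p = 0.0504). The exons of Fst overlap those of Gm47040 on the other strand, for which no counts are listed. Without stated strand use their reads cannot be told apart.

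In muscle Fst was at 4.37 and 3.40 CPM in WT and 3.06, 3.47 and 4.69 CPM in WT/flox. The ranges of the genotypes overlapped, and the log2 fold change was −0.05 (SE 0.26, adjusted p = 0.979). Its sign turned in 4 of the other fits, from 0.004 without 71B4 to 0.14 without 73A5.

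Fstl3, the gene of the related inhibitor, lies on chromosome 10 from 79777272 to 79782630 on the plus strand. Progenitors held 5.20, 5.16 and 7.88 CPM in WT and 4.99, 6.71 and 5.84 CPM in WT/flox. Muscle held 1.26 and 2.43 CPM in WT and 1.95, 2.56 and 2.58 CPM in WT/flox. The genotypes overlapped in both materials, with log2 fold changes of −0.06 (SE 0.25, adjusted p = 0.996) and 0.36 (SE 0.34, adjusted p = 0.828). The exons of Fstl3 overlap those of Prss57 on the other strand, which summed to 77 counts in WT and 48 in WT/flox progenitors against 281 and 236 for Fstl3. Without stated strand use the reads of the 2 genes cannot be told apart.

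Acvr2a, a type II receptor gene on chromosome 2 from 48814109 to 48903269 on the plus strand, was the most abundant receptor gene of the 3 in the sorts. It held 109, 108 and 126 CPM in WT and 110, 86.3 and 103 CPM in WT/flox progenitors, and the genotypes overlapped. The log2 fold change was −0.20 (SE 0.16, adjusted p = 0.826). Muscle held 36.3 and 23.1 CPM in WT and 26.6, 30.8 and 40.8 CPM in WT/flox, again with overlap, and the log2 fold change was 0.14 (SE 0.25, adjusted p = 0.923). Its exons overlap those of Orc4 on the other strand, which was counted at 1231 in WT and 1195 in WT/flox progenitors against 5220 and 4034 for Acvr2a.

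Acvr2b, the other type II receptor gene, lies on chromosome 9 from 119402118 to 119434995 on the plus strand and was scarce. It was at 3.09, 2.32 and 1.35 CPM in WT and 1.17, 1.92 and 1.74 CPM in WT/flox progenitors. In muscle it was at 4.31 and 2.43 CPM in WT and 2.42, 2.51 and 3.59 CPM in WT/flox. The genotypes overlapped in both, and the log2 fold changes were −0.47 (SE 0.40, adjusted p = 0.837) and −0.25 (SE 0.32, adjusted p = 0.888).

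Acvr1b, which encodes the type I receptor ALK4, lies on chromosome 15 from 101174067 to 101213684 on the plus strand. Progenitors held 20.2, 22.2 and 13.5 CPM in WT and 11.9, 15 and 18.5 CPM in WT/flox, with overlap and a log2 fold change of −0.30 (SE 0.23, adjusted p = 0.798). In muscle the WT libraries held 77.8 and 43.1 CPM and the WT/flox libraries 90.4, 115 and 107 CPM. All WT/flox libraries were above both WT libraries, but the log2 fold change of 0.79 (SE 0.25) did not pass (adjusted p = 0.316). The value turned on the 2 WT libraries: it was 1.27 (adjusted p = 0.013) without 73A5 and 0.42 (adjusted p = 0.456) without 73A7.

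**Figure D2:**
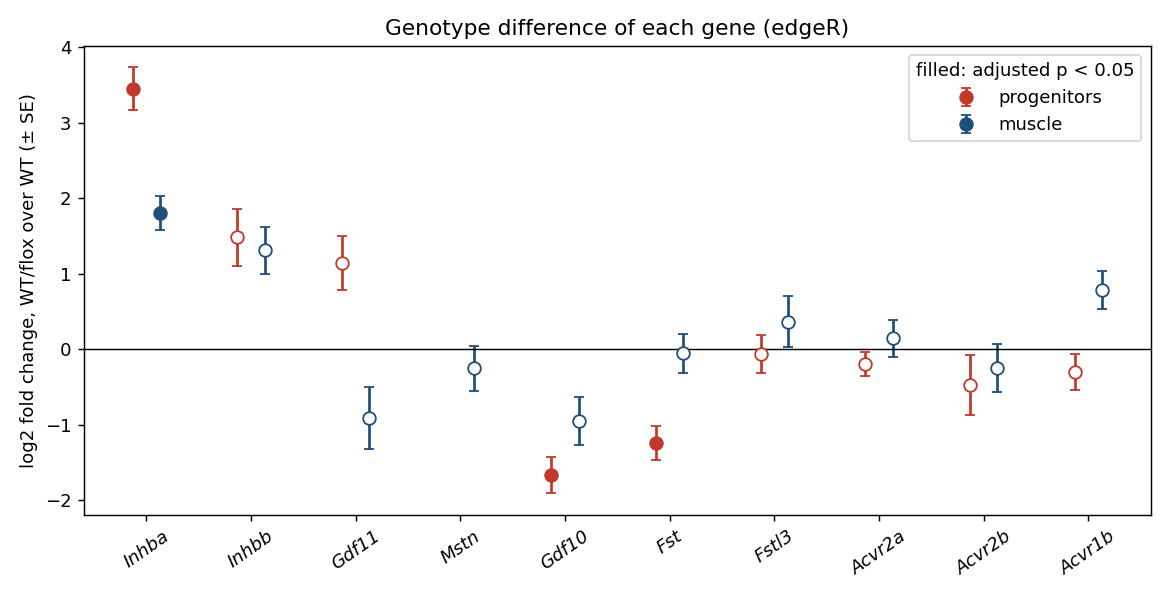
Genotype difference of each gene, as log2 of WT/flox over WT with its SE from edgeR, in progenitors (3 against 3) and in muscle (3 against 2); filled points passed at an adjusted p under 0.05. Inhba is filled and positive in both materials, at 3.45 and 1.81, and Gdf10 and Fst are filled and negative in progenitors. Mstn has no progenitor point.

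Counted over the genes, the genotypes did not overlap in progenitors for 5 of the 9 tested, 3 higher (Inhba, Inhbb, Gdf11) and 2 lower (Gdf10, Fst). Over all genes tested in progenitors, 16.9% did not overlap, 8.73% higher and 8.17% lower. In muscle 4 of the 10 did not overlap, 3 higher (Inhba, Inhbb, Acvr1b) and 1 lower (Gdf10), beside 25.3% of all genes tested there, 12.4% higher and 12.9% lower. The median log2 fold change was −0.20 over the 9 genes in progenitors and 0.04 over the 10 in muscle, beside 0.001 and 0.003 over all genes tested. The genes of the axis thus did not move one way together, as single genes differ in opposite directions.

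The libraries differed by genotype in other cell markers as well. In muscle, the 10 progenitor markers made up 0.0529% and 0.0806% of counts in WT and 0.104% to 0.117% in WT/flox, without overlap. Of the 10, edgeR called 0, with 4 at an unadjusted p under 0.05, beside 9.69% of all genes tested there. Col3a1 and Col1a1 were the most abundant of them. The median log2 fold change of the list was 0.26, and the values of Inhba and Inhbb were 1.81 and 1.31. The part of these markers in the values of Inhba and Inhbb was not tested. The 6 muscle stem cell markers took 0.0138% and 0.0164% of WT and 0.0114% to 0.0121% of WT/flox muscle counts, also without overlap. Itga7 was the most abundant of them, edgeR called 0 of the 5 tested, and their median log2 fold change was 0.15. In bulk muscle, fewer cells of a type and less RNA per cell cannot be told apart, nor can more of either. Several marker sums differed between genotypes in the sorts too, without overlap. The 10 progenitor markers themselves took the higher share in WT/flox given above, and of these Col1a1 rose (1.16, adjusted p = 0.00998), while the median of the 10 was 0.15 on the log2 scale. The 5 mural markers took 0.0147% to 0.0261% of the WT and 0.00626% to 0.00996% of the WT/flox counts. In WT that sum was mostly Cspg4, which fell from 147.0 to 31.12 CPM (adjusted p = 0.00269), and the median of the 5 was −0.07. The 7 endothelial markers took 0.0348% to 0.0471% of the WT and 0.0254% to 0.0311% of the WT/flox counts, in WT mostly from Tek, which fell from 377.5 to 152.0 CPM (adjusted p = 0.00319). Kdr of the same list rose, from 6.65 to 124.8 CPM (adjusted p = 0.00109). The 4 tendon markers took 0.0939% to 0.116% of the WT counts and 0.16% to 0.2% of those of WT/flox sorts, mostly from Thbs4, which rose (0.90, adjusted p = 0.03), as did Mkx (1.29, adjusted p = 0.0323). The 8 myofibre markers overlapped in sum, at 0.00186% to 0.0128% and 0.0019% to 0.00246%. All 7 that were tested had an unadjusted p under 0.05 by edgeR, beside 12.5% of all genes tested in progenitors. None of the 7 was called, and their median was −1.76 on the log2 scale. The part of these markers in the differences of Inhba, Fst and Gdf10 was not tested.

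The level of Inhba relative to Fst, per transcript length, puts ligand and inhibitor on a common scale within a library. In WT progenitors it was 0.0585, 0.0237 and 0.0285, and in WT/flox progenitors 0.648, 0.765 and 1.62. WT progenitors thus held many more follistatin than Inhba transcripts, and only the day 56 library held more Inhba. In WT muscle the ratio was 0.226 and 0.312, and in WT/flox muscle 1.16, 1.02 and 0.784. Genotypes did not overlap in either material, and the ratio holds no measurement beyond the levels of Inhba and Fst already given. Group means were 0.0369 ± 0.0189 and 1.01 ± 0.529 in progenitors (SD, n = 3 each), and 0.269 ± 0.0604 (n = 2) and 0.988 ± 0.191 (n = 3) in muscle. With the length of the longest transcript of each gene the means were 0.0235, 0.643, 0.171 and 0.629 in the same order, so that the absolute value depends on the lengths used and the order of genotypes does not.

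**Figure D3:**
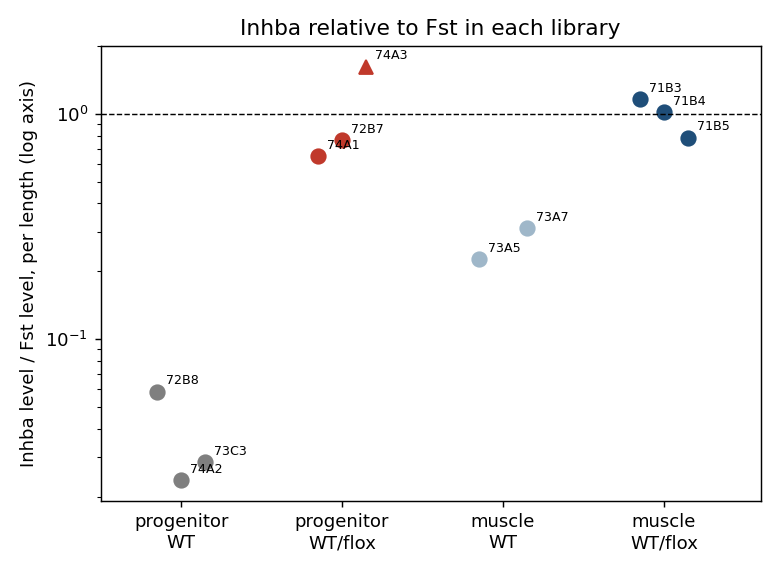
Level of Inhba divided by that of Fst, both per transcript length, in each library on a log axis; the dashed line marks equal levels. WT progenitors lie between 0.0237 and 0.0585 and WT/flox progenitors between 0.648 and 1.62, with the day 56 library (triangle) highest. Muscle libraries lie at 0.226 and 0.312 in WT and from 0.784 to 1.16 in WT/flox.

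Levels between genes were compared per length, as TPM, in which the levels per length of all matched genes of a library have the same sum. In WT progenitors Fst was the highest at 226 ± 31.4 TPM (SD, n = 3), then Gdf10 at 159, Acvr2a at 84.9 and Inhbb at 46.9, each without overlap with the next. Acvr1b at 18.1, Fstl3 at 10.4 and Inhba at 8.09 overlapped with their neighbours in this order, and Acvr2b, Gdf11 and Mstn were at 2.47, 2.2 and 0.308. In WT/flox progenitors Inhbb at 128 ± 69.9, Fst at 92.2, Inhba at 85.4 and Acvr2a at 72.6 stood at the top, and neighbours among these 4 could not be separated. Inhba thus stood in the seventh place in WT and in the third in WT/flox progenitors.

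In WT muscle the order was another one, led by Acvr1b at 38.2, Mstn at 26.6 and Acvr2a at 14.5 TPM, whose neighbours overlapped. All other genes were at or below 3.08 TPM, with Inhba lowest at 0.608. In WT/flox muscle Acvr1b at 73.3 stood above Mstn at 24.8 and Acvr2a at 18.2, and the 7 other genes lay between 1.14 and 3.73 TPM.

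Between WT progenitors and WT muscle all 10 genes passed the test, in a joint fit in which 76.1% of 13781 genes did. Day changes together with material in this comparison, day 14 against day 56, and the 2 cannot be told apart. Only the sorts came from dissociated muscle. The 5 dissociation markers, led by Jun and Fos, took 0.31% to 0.863% of WT sort counts and 0.0163% to 0.0194% of WT muscle counts. All 5 passed as higher in the sorts, and the part of dissociation in the values here was not tested. Sex is not matched either, with 1 female among the 3 WT sorts and none among the lysates. Of the 10 genes of the axis, 6 were higher in the sorts (38.6% of all genes tested were). Fst was higher by a log2 fold change of 5.41 (SE 0.32, adjusted p = 2.3e-09), Gdf10 by 4.49, Inhbb by 3.92, Inhba by 2.50, Acvr2a by 1.38 and Fstl3 by 1.17. The other 4 were lower (37.5% of all genes were), Acvr1b at −2.28, Acvr2b at −1.18, Gdf11 at −0.98 and Mstn at −7.52. For Mstn, 9 counts in WT progenitors stood against 837 in WT muscle, a ratio per total of 0.0082 with an exact 95% interval of 0.00373 to 0.0156. Mstn passed the filter on low counts in this fit through the muscle libraries alone, so its call lends no support to the counts of genes passed. Scaling by total counts in place of TMM moved the median of all genes from 0.09 to 0.75, and Gdf11 (−0.31, adjusted p = 0.549) and Acvr2b (−0.51, adjusted p = 0.273) then did not pass. Without 73A5, Gdf11 (adjusted p = 0.408), Acvr2b (−0.69, adjusted p = 0.196) and Fstl3 (0.78, adjusted p = 0.0963) did not pass, and Gdf11 also failed without 72B8 (adjusted p = 0.105) or 73C3 (adjusted p = 0.132).

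Whether the genotype difference itself differed between the materials was tested as an interaction in that joint fit, where 0.769% of 13781 genes passed. None of the 10 genes passed with edgeR, and 4 had an unadjusted p under 0.05, beside 8.71% of all genes tested. With DESeq2 2 passed, beside 272 of all genes tested. The log2 difference, progenitors minus muscle, was 1.60 for Inhba (SE 0.40, adjusted p = 0.109), 2.01 for Gdf11 (SE 0.56, adjusted p = 0.16), −1.24 for Fst (SE 0.36, adjusted p = 0.184) and −1.13 for Acvr1b (SE 0.36, adjusted p = 0.25). The 2 that passed with DESeq2 were Inhba (adjusted p = 0.0157) and Gdf11 (adjusted p = 0.044), and Inhba passed with edgeR without 72B8 (1.93, adjusted p = 0.0182). For Inhbb the difference was 0.12 and for Gdf10 −0.79, both far from passing. A fall of Fst in progenitors with no call in muscle is therefore not shown to be a difference between the materials.

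The other genes of the pathway were taken from 6 lists with 66 genes: other ligands, other extracellular binders, proteases that cut propeptides, other receptors, SMADs with their regulators, and genes known to respond to SMAD2 and SMAD3 or to mark muscle atrophy. In each material 52 of the 66 were tested. In progenitors 0 rose and 2 fell, Tll2 and Pcsk6, both by edgeR and by limma voom, and 12 (23.1%, beside 12.5% of all genes) had an unadjusted p under 0.05. Those 2 are 3.85% of the 52, close to the 3.66% called over all genes, so the count is no result about the lists. DESeq2 called 7, 1 higher and 6 lower, beside 755 of all 12392 genes tested. The median over the 52 was 0.01. In muscle 4 rose and 0 fell by edgeR and limma voom, with 16 at an unadjusted p under 0.05. There DESeq2 called 8 higher and 1 lower, beside 267 of all 12654 genes tested. The 4 are 7.69% of the 52, beside 0.727% called over all genes, and the 16 are 30.8%, beside 9.69%. The lists were chosen with earlier results of these data known. Neither these shares nor those of single lists below therefore show an enrichment. The median in muscle was 0.22, beside 0.003 over all genes tested.

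Proteases that free or cut the propeptides of these ligands held both progenitor calls among 7 tested, where 1.32% of all genes tested were called lower. So few genes give no result about the list. Tll2 encodes tolloid-like 2, a relative of BMP1, whose family cuts the myostatin propeptide. It was counted 41, 97 and 46 times in WT and 1, 1 and 2 times in WT/flox progenitors. WT/flox progenitors thus held hardly any, and the log2 fold change of −5.24 (SE 0.60, adjusted p = 0.00113) rests on those 4 counts. Tll2 passed the filter on low counts through the WT libraries alone, so its call lends no support to a change of the list. Pcsk6 encodes the proprotein convertase PACE4 and was abundant, at 1910, 1370 and 1350 CPM in WT and 736, 734 and 774 CPM in WT/flox. Its log2 fold change of −1.05 (SE 0.20, adjusted p = 0.0189) lost its call without any of the WT/flox libraries or without 72B8 (adjusted p from 0.0804 to 0.0935). In muscle 0 of 6 tested proteases was called by edgeR, 0 had an unadjusted p under 0.05, and Tll2 had 2 counts in all.

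Of the other ligands, 6 of 14 were tested in progenitors and 4 in muscle, and none was called by edgeR in either (1 in each at an unadjusted p under 0.05). Inhbc, Inhbe and Gdf1 had no count in any of the 11 libraries, so that among the inhibin beta genes counts came from Inhba and Inhbb alone. Inha, whose product pairs with the beta chains to form inhibins, averaged 2.56 CPM in the WT and 1.71 CPM in the WT/flox sorts (log2 fold change −0.56, adjusted p = 0.868). Of 12 other extracellular binders, 11 and 10 were tested and none was called by edgeR (1 and 3 at an unadjusted p under 0.05). Wfikkn2, which encodes a binder of myostatin and GDF11, averaged 1.78 CPM in WT and 1.06 in WT/flox progenitors (−0.74, adjusted p = 0.545), and 23.96 and 26.65 CPM in the lysates (0.15, adjusted p = 0.861).

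Among the other receptors 1 of 9 tested in muscle rose, where 0.514% of all genes tested there did. Acvr1, the gene of the type I receptor ALK2, was at 20.4 and 21.4 CPM in WT and 39.4, 41.5 and 42.7 CPM in WT/flox muscle, with a log2 fold change of 0.98 (SE 0.14, adjusted p = 0.0234). In progenitors 7 receptors were tested and none was called by edgeR (2 at an unadjusted p under 0.05). Of 13 tested SMAD and regulator genes, 1 rose in muscle: Smad7, which encodes an inhibitory SMAD, at 18.6 and 14.8 CPM in WT and 37.5, 30.9 and 41.1 CPM in WT/flox (1.13, SE 0.18, adjusted p = 0.0443). Skil, the gene of the SMAD corepressor SnoN, was at 22.02 and 53.41 CPM and did not pass (1.28, adjusted p = 0.097). None of the 13 was called by edgeR in progenitors (3 at an unadjusted p under 0.05).

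Of the responsive and atrophy genes, 2 of 10 tested in muscle rose, where 0.514% of all genes tested there did. None of 8 in progenitors was called by edgeR (2 at an unadjusted p under 0.05). Mss51, a gene of fast muscle fibres known to be lowered by myostatin blockade, was at 34.7 and 25.2 CPM in WT and 486, 345 and 371 CPM in WT/flox muscle, a log2 fold change of 3.74 (SE 0.25, adjusted p = 0.00546). Pmepa1, a target of SMAD2 and SMAD3, was at 18.6 and 33.0 CPM in WT and 88.3, 72.1 and 83.8 CPM in WT/flox muscle (1.66, SE 0.25, adjusted p = 0.0346). In progenitors Mss51 was at 1.06 and 1.81 CPM and Pmepa1 at 141.5 and 148.1 CPM, and neither passed. The ubiquitin ligase genes Fbxo32 and Trim63, markers of muscle atrophy, did not pass in muscle, at 251.5 and 292.7 CPM for Fbxo32 (0.22, adjusted p = 0.808) and 246.7 and 231.8 CPM for Trim63 (−0.09, adjusted p = 0.912). Without 71B5 all 4 muscle calls of the lists were lost, with adjusted p from 0.0532 for Mss51 to 0.217 for Pmepa1 and Smad7. Without 71B4 only Mss51 passed. Smad7 also lost its call without 71B3 (adjusted p = 0.0866) or 73A7 (adjusted p = 0.0635), and Acvr1 without 71B3 (adjusted p = 0.0557).

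**Figure D4:**
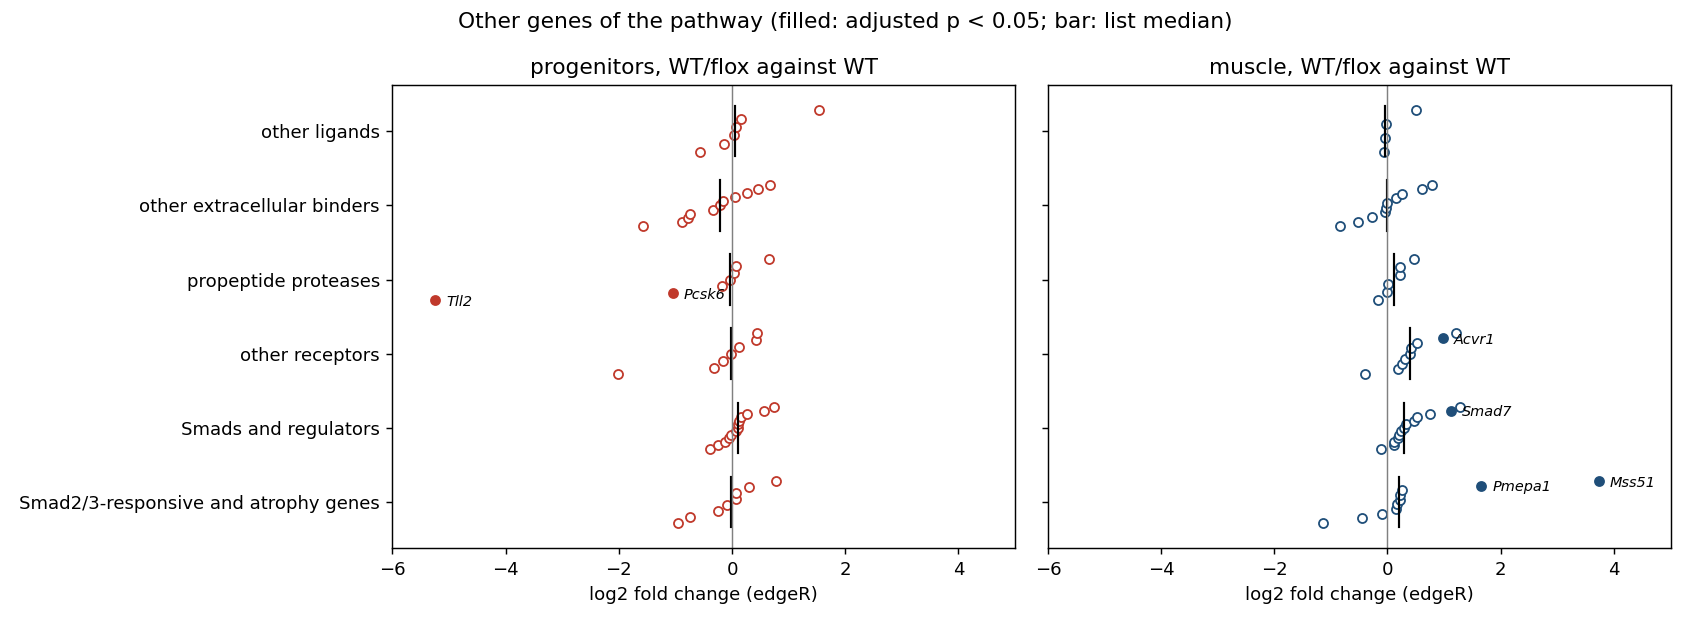
Log2 fold change of WT/flox over WT for each tested gene of the 6 lists, in progenitors and in muscle; filled points passed at an adjusted p under 0.05 and bars are list medians. Tll2 and Pcsk6 are the filled points in progenitors, and Acvr1, Smad7, Pmepa1 and Mss51 those in muscle.

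The genes most like Inhba were ranked by the lower of 2 Pearson correlations of log2 CPM, 1 over the 6 progenitor libraries and 1 over the 5 muscle libraries, among 11121 genes tested in both. The first 5 were Fzd1 (0.989 and 0.99), Adgra3 (0.989 and 0.993), Sfrp1 (0.988 and 0.993), Dkk2 (0.988 and 0.98) and Spon1 (0.979 and 0.995). All correlate over libraries that differ by genotype, so the values describe the same split of libraries that Inhba shows. Each was higher in WT/flox in both materials, as for Dkk2 with log2 fold changes of 2.65 (adjusted p = 9e-05) and 2.40 (adjusted p = 0.01), and Sfrp1 with 1.49 (adjusted p = 7.78e-04) and 1.54 (adjusted p = 0.0214). Inhba, at 3.45 in progenitors, had a larger value there than these 5. For Fst the first 5 were Mfap1b (0.956 and 0.969), Acad12 (0.933 and 0.939), Rgmb (0.9 and 0.945), Zfp395 (0.94 and 0.898) and Cacng7 (0.892 and 0.873). Of these, Rgmb fell in progenitors (−0.87, adjusted p = 0.0131; adjusted p = 0.0711 without 74A3), and the other 4 had values from −0.62 to −0.24 that did not pass.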

How the data were processed

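RNA was measured in 11 libraries, 1 per mouse, in 4 groups taken from the labels. P-values measure the spread between mice. Per the labels' protocols, a kit that keeps strand was used for mRNA libraries, sequenced as read pairs of 43 bp. As tools, bcl2fastq 2.20, Bowtie and STAR are listed in the submitters' processing notes, with the build mm10. The counting program and its use of strand are not stated in the sources used here. Deposited were raw counts by gene symbol, with separate tables for sorts and lysates. The authors' sample tables call both materials FAPs, while the labels, followed here, call the lysates whole muscle.

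The materials were fitted separately in edgeR 4.0.16 (R 4.3.3) with filterByExpr, TMM scaling, robust quasi-likelihood F tests, two-sided, adjusted after Benjamini-Hochberg at 0.05. Standard errors are those implied by the F statistic. A joint fit over the 4 groups gave the comparison of materials and the interaction. The tests were checked on simulated counts. Alternatives were DESeq2 1.42.0, limma 3.58.1 with voom, other scalings, no filter, sex as a term, a fit over all groups and leaving out each library. Lengths and coordinates came from GENCODE mouse release M21 on GRCm38, which matched 23376 of the 24421 symbols, and promoters from RefSeq. Where strand use is not known, reads of overlapping genes on opposite strands cannot be told apart. This also holds for Fst, whose exons overlap those of Gm47040, which was not used here.

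The members and gene lists were chosen with earlier results of these data known. The text names all 10 members and, of each pathway list, up to 4 called genes per comparison. Further names are the 5 genes most like Inhba and Fst, without predicted gene models, Ctnnb1, Hic1 and the most abundant cell type markers. Inha, Inhbc, Inhbe, Gdf1, Wfikkn2, Skil, Fbxo32, Trim63, Kdr and Mkx were named after their values were seen. The replicate numbers of the authors' sample tables did not pair the progenitor libraries.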

Additional observations from a re-analysis of the deposited data

Results flagged for a closer look

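For 2 genes of the pathway lists the genotype difference itself differed between progenitors and muscle in the joint edgeR fit. Chosen by that test, they are Mss51 and Pmepa1. For Mss51 the log2 fold change in progenitors minus that in muscle was −3.0 (SE 0.38, adjusted p = 0.00166), and over the alternatives it ran from −3.27 to −2.77 with adjusted p up to 0.0128. For Pmepa1 the difference was −1.65 (SE 0.33, adjusted p = 0.0319). It lost its call without any 1 of 8 of the 11 libraries, with adjusted p from 0.0589 without 72B7 to 0.122 without 73A5. In this fit 5 of the 6 progenitor libraries are of day 14 and all muscle libraries of day 56. The other progenitor library, 74A3, is of day 56 and WT/flox.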

How the results depend on the processing

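Of 834 gene fold changes recomputed under an alternative, 815 kept their direction. DESeq2 called more genes than edgeR: 755 against 454 in progenitors, 267 against 92 in muscle (59.6% of them higher against 70.7%) and 272 against 106 for the interaction. With it 2 members passed in muscle and 2 in the interaction, and 7, 9 and 4 pathway genes in these 3 tests. Progenitor pathway genes called were 5 with sex as a term, 5 in the fit over all 4 groups and 4 under the replicate block. Over all genes, 546, 652 and 491 were called in the same fits. In muscle 139 genes passed with no filter on low counts. Blocking on the replicate numbers of the authors' sample tables, an alternative chosen after seeing the data, gave 178 genes in muscle and a log2 fold change of Fst there of 0.066. Deviations of same-numbered progenitor libraries correlated at 0.031, 0.294 and −0.133. Inhbb passed in progenitors under the block (1.39, adjusted p = 0.0108). By the longest transcript, Inhba over Fst was 0.171 in WT and 0.629 in WT/flox muscle.

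Leaving out 1 library at a time gave 262 to 483 genes, 2 to 4 members and 1 to 3 pathway genes in progenitors. The same gave 0 to 239 genes, 0 to 3 members and 0 to 7 pathway genes in muscle, with the highest counts without 73A5 (45.6% of the genes higher) and 0 genes without 71B5. For the interaction it gave 54 to 114 genes, 0 or 1 members and 1 to 3 pathway genes, and between WT materials 7 to 10 members. Signs turned for values near 0: in progenitors Fstl3 ran from −0.17 to 0.18 and Pmepa1 from −0.064 to 0.22. In muscle Mstn ran from −0.71 to 0.42, Fst from −0.25 to 0.14, Fstl3 from −0.04 to 0.91, Acvr2a from −0.15 to 0.51 and Acvr2b from −0.60 to 0.23. In the interaction Inhbb ran from −0.31 to 0.44 and Acvr2b from −0.75 to 0.11. The cause was not tested in any of these. Groups of 2 or 3 limit every test here, and Mstn in sorts and Gdf11, Acvr2b and Fstl3 throughout rest on few counts.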
